A study of Mus musculus with 7 samples.

Results

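The 10 macrophage and myeloid genes followed here in mouse pancreatic islets were Lyz2, Csf1r, Adgre1, Cd68, C1qa, C1qb, C1qc, Mrc1, Itgam and Cx3cr1. They were chosen by name from the immune genes of these libraries, with their AE-F2 over control-F2 count ratios already known, so those ratios are given as a description. All 10 were found among the 21899 genes listed, and all 10 were kept by a filter that asked for 10 or more counts on average over the libraries, which kept 13627 genes.

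The study asked what androgen exposure (AE) of a pregnant dam does to glucose metabolism in later male generations, and measured mRNA in islets of F2 males by RNA-seq. F0 dams of the C57BL/6J strain, wild type in both arms, received subcutaneous dihydrotestosterone in benzyl benzoate and corn oil late in gestation (AE, hyperandrogenism in the labels) or the carrier alone (control). Their sons, exposed in utero, were mated to unrelated wild-type females, so the F2 males sampled here had not themselves been exposed. Of the 3 control-F2 and 4 AE-F2 samples in the labels, the count files of control-F2 replicate 1 and AE-F2 replicate 4 were used. The other 5 samples were not analysed here. Age at islet isolation and the number of mice behind each library are not given for these libraries in the sources used here. The islets were freed with collagenase, purified on a gradient, picked by hand and cultured, and a library holds all cells that stayed with them.

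The control-F2 library held 16285888 counts and the AE-F2 library 21278513. With 1 library per group there is no replicate check, and no p-value was computed. Each level below is in scaled CPM (counts per 1e6), and each 95% interval covers counting error alone, not the spread between animals. The islet label fitted its markers: all 8 endocrine markers were present, and Ins2, an insulin gene, held 2092228 counts in control-F2 and 2632403 in AE-F2.

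Islets normally hold a small resident population of macrophages that lies close to the β-cells and vessels and clears dying cells. These cells depend on signalling through the receptor encoded by Csf1r, and tissue macrophages in general are among the main makers of the complement protein C1q, which tags debris and immune complexes for uptake. Lyz2 encodes lysozyme M, an antibacterial enzyme made by macrophages, monocytes and neutrophils.

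The AE-F2 library held about 4 times as much Lyz2 as the control-F2 library, while the other 9 genes lay close to equality as a group. Together the 10 genes made up 0.00875% of all counts in control-F2 and 0.0104% in AE-F2. Lyz2 was the only 1 of the 10 at least 2-fold higher in AE-F2, against 3.16% of the 13627 genes, and 0 of the 10 were at least 2-fold lower, against 0.653%. The interval of the ratio lay above equality for 1 member, Lyz2, and below it for 1 member, C1qa. Over all genes those shares were 13.4% above and 13.4% below, so counts of 1 in 10 are near the background. Since Lyz2 was among the genes whose ratio was known when the members were chosen, nothing is read from these counts. The median log2 ratio of the 10 genes was 0.06, and 0.02 without Lyz2, beside 0.00 for all 13627 genes.

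**Figure D1:**
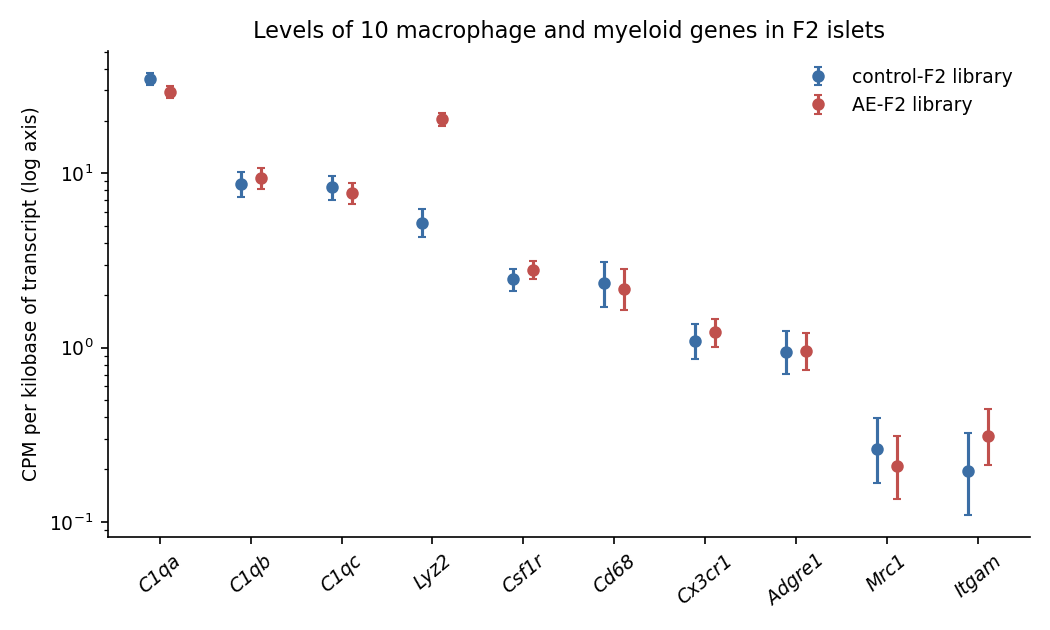
Level of each of the 10 genes in CPM per kilobase of transcript on a log axis, with 1 point for the control-F2 library and 1 for the AE-F2 library and bars for the 95% counting interval. The Lyz2 points sit apart, at 5.22 and 20.4 CPM per kilobase, and the intervals of each gene other than Lyz2 and C1qa overlap between the libraries.

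Lyz2 had 112 counts in control-F2 and 571 in AE-F2, or 6.87 CPM (interval 5.65 to 8.26) against 26.9 CPM (24.7 to 29.2). Its log2 ratio was 1.96, a 3.90-fold higher level in AE-F2 with a counting interval of 3.19 to 4.84. AE-F2 was the high library and the intervals of the levels did not overlap. Of the 10540 genes that average 100 counts or more, as Lyz2 does, 0.285% were at least 2-fold higher in AE-F2. Lyz2 has a neighbour, Lyz1, that encodes the lysozyme of intestinal Paneth cells and shares much of its sequence. Over 447 coding bases they differ at 22, which makes them 95.1% identical, and 80 of the 398 windows of 50 bases in Lyz2 (20.1%) also occur in Lyz1, so reads can be split between the pair. Lyz1 held 1 count in control-F2 and 19 in AE-F2, a log2 ratio of 3.32 with an interval of 1.21 to 9.24, and passed the filter only through AE-F2. Of the 5 other genes on the Paneth cell and intestinal list, Defa24 and Reg4 were at 0 in both libraries, Muc2 had 2 and 1 counts, Tff3 had 2 and 4, and Vil1 had 2693 and 3460. How many of the Lyz2 counts came from Lyz1 was not tested.

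The start regions of Lyz2, its paralogue Lyz1 and 2 of the C1q genes are shown because Lyz2 parted from C1qb and C1qc in these libraries. Capitals mark ACTTCCT, the reverse complement of AGGAAGT, a core of the kind bound by ETS factors such as PU.1, the regulator of myeloid fate. The sequences are from RefSeq on GRCm38.p6, read 5′ to 3′ on the minus strand, at chr10:117282323-117282522 for Lyz2, chr10:117292919-117293118 for Lyz1, chr4:136886201-136886400 for C1qb and chr4:136893070-136893164 for C1qc.
Lyz2: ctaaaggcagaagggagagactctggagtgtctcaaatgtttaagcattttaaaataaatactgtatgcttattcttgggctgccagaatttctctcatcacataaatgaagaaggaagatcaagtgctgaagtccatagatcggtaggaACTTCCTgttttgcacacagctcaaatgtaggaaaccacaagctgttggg
Lyz1: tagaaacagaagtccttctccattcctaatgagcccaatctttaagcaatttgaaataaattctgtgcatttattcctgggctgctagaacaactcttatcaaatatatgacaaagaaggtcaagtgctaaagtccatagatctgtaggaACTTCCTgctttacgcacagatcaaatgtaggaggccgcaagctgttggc
C1qb: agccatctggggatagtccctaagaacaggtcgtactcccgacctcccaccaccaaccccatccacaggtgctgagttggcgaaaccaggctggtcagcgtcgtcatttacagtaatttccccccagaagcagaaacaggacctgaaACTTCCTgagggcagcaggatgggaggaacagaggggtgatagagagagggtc
C1qc: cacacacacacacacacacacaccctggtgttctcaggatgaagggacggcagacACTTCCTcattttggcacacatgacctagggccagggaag

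The word began 100 bases before the start in both lysozyme genes, 53 before it in C1qb and 195 before it in C1qc. Searched on both strands from 250 bases before to 50 after the start, AGGAAGT was found in 4 of the 7 members that have a window (Lyz2, C1qb, C1qc and Mrc1) and in 9.35% of all 32851 windows. It was chosen after these windows had been read, and a match is only a match of letters. Both Lyz2, higher in AE-F2, and C1qb and C1qc, near equality, carry it.

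The C1q complex is built from 3 chains, encoded by C1qa, C1qb and C1qc, which lie side by side in the genome. C1qa was the most abundant of the 10 genes in both libraries, with 592 counts (36.3 CPM) in control-F2 and 647 (30.4 CPM) in AE-F2. Its log2 ratio was -0.25 with an interval of -0.42 to -0.09, a ratio of 0.839. The AE-F2 library was thus the lower for C1qa, by far less than 2-fold.

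C1qb had 154 counts (9.44 CPM) in control-F2 and 217 (10.2 CPM) in AE-F2, a log2 ratio of 0.11 with an interval of -0.19 to 0.42. C1qc had 163 counts and 197 counts (9.27 CPM in AE-F2), a log2 ratio of -0.11 with an interval of -0.42 to 0.20. Neither library stood above the other beyond counting error for these 2 chains. The 3 chains summed to 909 and 1061 counts, a log2 ratio of -0.16 (-0.29 to -0.03).

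Ratios of genes within a library do not depend on how libraries are scaled. C1qa over C1qb was 3.84 counts per count in control-F2 and 2.98 in AE-F2, an AE-F2 over control-F2 ratio of 0.776 (exact conditional interval 0.609 to 0.987). C1qa over C1qc was 3.63 and 3.28, a ratio of 0.904 (0.709 to 1.15), and C1qb over C1qc 0.945 and 1.10, a ratio of 1.17 (0.861 to 1.58). The last 2 intervals hold 1, as does that of C1qa over C1qb and C1qc summed, 0.837 (0.693 to 1.01).

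The 5 receptors and adhesion molecules among the 10 genes had ratios under 2-fold, with intervals that held equality. Csf1r, the receptor for the macrophage growth factors CSF1 and IL-34, had 189 counts (11.6 CPM) in control-F2 and 278 (13.1 CPM) in AE-F2, a log2 ratio of 0.17 (-0.10 to 0.45). Its exons overlap those of Hmgxb3 on the other strand, which held 782 and 899 counts, and whether counting used the strand is not given in the sources used here, so some reads may belong to either gene. Neither library was higher for Csf1r beyond counting error.

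Adgre1, which encodes the surface protein F4/80, had 50 counts (3.07 CPM) in control-F2 and 66 (3.11 CPM) in AE-F2, a log2 ratio of 0.02 (-0.53 to 0.58). Cx3cr1, the receptor for fractalkine, had 80 (4.91 CPM) and 117 (5.51 CPM), a log2 ratio of 0.16 (-0.26 to 0.60). Its exons overlap an antisense gene, Gm33858, so its counts carry the same doubt over strand as those of Csf1r. Both genes were at like levels in the libraries within counting error, and the intervals stay inside 2-fold either way.

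Mrc1, the mannose receptor of scavenging macrophages, had 23 counts (1.41 CPM) in control-F2 and 24 (1.13 CPM) in AE-F2, a log2 ratio of -0.32 (-1.21 to 0.57). Itgam, the integrin chain also known as CD11b, had 15 (0.920 CPM) and 31 (1.46 CPM), a log2 ratio of 0.64 (-0.27 to 1.66). These 2 genes had the fewest counts of the 10, and their intervals hold equality and also reach past 2-fold, below it for Mrc1 and above it for Itgam. The exons of Itgam overlap those of Gm49368 on the same strand, which held 0 counts in both libraries. Reads from the overlap may belong to either gene.

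Cd68, a glycoprotein of macrophage lysosomes, had 47 counts (2.88 CPM) in control-F2 and 57 (2.68 CPM) in AE-F2, a log2 ratio of -0.11 (-0.69 to 0.49). Leaving Lyz2 out, the 9 other genes summed to 1313 counts (80.5 CPM) in control-F2 and 1634 (76.9 CPM) in AE-F2, a log2 ratio of -0.07 (-0.17 to 0.04). Their summed level was thus the same in the libraries within counting error, whereas Lyz2 was not. In bulk islet RNA, more cells of a type and more RNA per cell cannot be told apart.

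**Figure D2:**
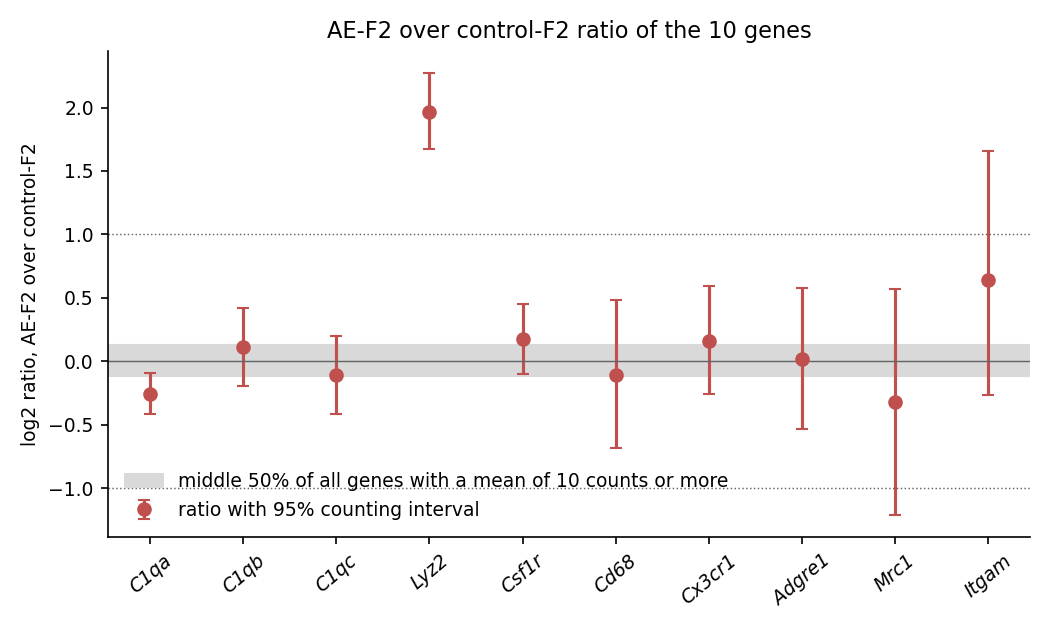
Ratio (log2) of the AE-F2 to the control-F2 level for each of the 10 genes, with bars for the 95% counting interval, a grey band for the middle 50% of all 13627 genes (-0.12 to 0.13) and dotted lines at 2-fold. Lyz2 is the only 1 past a dotted line, C1qa lies below 0, and the intervals of the other 8 cross 0.

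As a share of the 10 genes' own counts, Lyz2 made up 7.86% in control-F2 (Wilson interval 6.57% to 9.37%) and 25.9% in AE-F2 (24.1% to 27.8%). C1qa went the other way, from 41.5% (39.0% to 44.1%) to 29.3% (27.5% to 31.3%). The shares of Csf1r, 13.3% and 12.6%, and of Cx3cr1, 5.61% and 5.31%, differed less. A larger Lyz2 share lowers every other share, so the shares are not independent of each other.

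**Figure D3:**
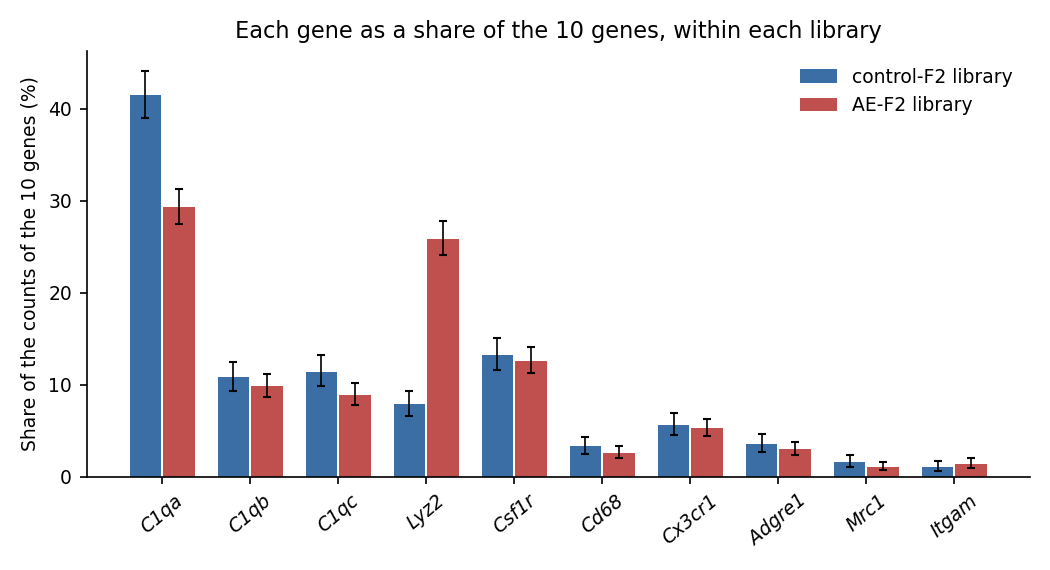
Share of each gene in the summed counts of the 10 genes, in percent, for the control-F2 and AE-F2 libraries with 95% Wilson intervals. Lyz2 goes from 7.86% to 25.9% and C1qa from 41.5% to 29.3%.

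Set against the other 9 genes summed, Lyz2 held 0.0853 counts per count in control-F2 and 0.349 in AE-F2, a ratio of 4.10 (exact interval 3.29 to 5.13). Against single genes the ratio ran from 2.46 with Itgam (1.19 to 4.89) to 4.87 with Mrc1 (2.53 to 9.37), and it was 3.46 with Csf1r (2.61 to 4.61). Lyz2 was higher relative to each of the other 9 in AE-F2, on a measure that needs no scaling. The 9 ratios share the same Lyz2 counts, whose difference was known when the genes were chosen, so their number is no support.

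Levels can be compared between genes only per length of transcript. In CPM per kilobase, C1qa led in control-F2 at 34.9, followed by C1qb at 8.68, C1qc at 8.31 and Lyz2 at 5.22. Csf1r at 2.47, Cd68 at 2.34, Cx3cr1 at 1.09 and Adgre1 at 0.947 came next, with Mrc1 at 0.262 and Itgam at 0.196 last. C1qb and C1qc, Csf1r and Cd68, Cx3cr1 and Adgre1, and Mrc1 and Itgam were neighbours whose intervals overlapped. In AE-F2 Lyz2 reached 20.4 CPM per kilobase, below C1qa at 29.3 and above C1qb at 9.39, and so moved from rank 4 to rank 2.

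Of the genes upstream of these members, ligands and transcription factors were read from lists chosen with earlier results known. Csf1, the ligand of Csf1r, had 254 counts (15.6 CPM) in control-F2 and 401 (18.9 CPM) in AE-F2, a log2 ratio of 0.28 (0.05 to 0.51), and Cx3cl1, the ligand of Cx3cr1, had 420 and 600, a log2 ratio of 0.13. Il34 had 25 and 54, a log2 ratio of 0.71 (0.02 to 1.48). The ratios of these ligands and of their receptors were all under 2-fold. Of 3 ligands with enough counts 0 were past it, against 3.16% higher and 0.653% lower over all genes, so 0 of 3 is near the background.

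Among 10 of 11 myeloid transcription factors with enough counts, 6 were at least 2-fold higher in AE-F2 and 0 lower, against 3.16% and 0.653% of all genes, with a median log2 ratio of 1.17, and 2 of the 6 were kept by the filter only through AE-F2, with under 10 counts in control-F2. Irf8, which directs monocytes and dendritic cells and also acts in B cells, had 34 counts in control-F2 and 153 in AE-F2, a log2 ratio of 1.77 (1.24 to 2.37). Zeb2 had 50 and 151, a log2 ratio of 1.20, while Cebpb had 424 and 435, a log2 ratio of -0.34. The higher factors include Ikzf1, with 16 and 133 counts, a factor of lymphocytes too, and Spi1, which encodes PU.1, with 13 and 38. Ikzf1 and Spi1 were singled out after their values were seen.

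Of 16 other general macrophage genes with enough counts, 1 was at least 2-fold higher in AE-F2 and 0 lower, against 3.16% and 0.653% of all genes, with a median log2 ratio of 0.29. The gene past 2-fold was Laptm5, a lysosomal membrane protein of blood cells, with 157 and 422 counts and a log2 ratio of 1.04. The most abundant of them, Sirpa, had 2999 and 4070 counts, a log2 ratio of 0.06 (-0.01 to 0.13), and Tlr2 had 414 and 585, a log2 ratio of 0.12 (-0.07 to 0.30). In control-F2 Sirpa stood at 46.2 CPM per kilobase and Tlr2 at 8.42, against 34.9 for C1qa and 2.47 for Csf1r. Which cells made Sirpa and Tlr2 was not tested. The interval lay above 0 for 4 of the 16 and below it for 0, against 13.4% above and 13.4% below over all genes. Mpeg1 (perforin-2) had a log2 ratio of 0.42 and Ctss (cathepsin S) one of 0.48, both with intervals above 0. All 5 scavenger and resident macrophage genes with enough counts were under 2-fold, and Lyve1, at 292 and 407 counts, had a log2 ratio of 0.10. Of 16 lysosomal genes 0 were past 2-fold, against 3.16% higher and 0.653% lower over all genes, with a median log2 ratio of 0.10. Their interval lay above 0 for 7 and below it for 1, against 13.4% and 13.4% of all genes. Psap, the most abundant of them, stood at 588 CPM per kilobase in control-F2, and which cells made it was not tested.

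Of 13 complement genes outside C1q, 4 were at least 2-fold higher in AE-F2 and 0 lower, against 3.16% and 0.653% of all genes, with a median log2 ratio of 0.57, and 1 of the 4 was kept only through AE-F2. C3, the central complement component, had 129 counts (7.91 CPM) in control-F2 and 1247 (58.7 CPM) in AE-F2, a 7.39-fold difference, and C4b had 41 and 230, a log2 ratio of 2.09 (1.62 to 2.62). Lyz2 over the summed complement genes had an AE-F2 over control-F2 ratio of 2.27 (1.84 to 2.83). C3 and C4b were thus higher in AE-F2 while C1qa was lower in this pair of libraries.

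The summed general leukocyte, B cell and T cell markers were also higher in AE-F2. With 1 library per group, whether they vary together with Lyz2 cannot be seen. All 9 general leukocyte genes were at least 2-fold higher, against 3.16% of all genes, with a sum of 316 counts in control-F2 and 1709 in AE-F2 (19.4 and 80.4 CPM, 4.15-fold). Ptprc, the leukocyte protein CD45, had 66 and 343, a log2 ratio of 1.99. Of 9 B cell markers with enough counts 8 were at least 2-fold higher, against 3.16% of all genes. All 10 listed B cell markers summed to 191 and 998, and Cr2, Fcrla and Blk were at 0 in control-F2. Cd79a, the member under 2-fold, held 178 of those 191 control-F2 counts, and without it the other 9 markers summed to 13 and 607. Of the 10 T cell markers 5 had enough counts, and all 5 were at least 2-fold higher, against 3.16% of all genes, although the interval of Il7r (6 and 19 counts) held equality. The 10 markers summed to 25 and 243 (7.33-fold), and Cd3e, Cd3d, Cd3g and Trbc2 were at 0 in control-F2. The 8 B cell and 5 T cell markers past 2-fold, and 2 of the 9 general leukocyte genes, had under 10 counts in control-F2 and passed the filter only through AE-F2, so they had to be higher there and their number is no support. Lyz2 over the general leukocyte sum was 0.354 in control-F2 and 0.334 in AE-F2, a ratio of 0.943 (0.741 to 1.20). That comparison was chosen after the values were seen and supports nothing, and the T cell sum and the B cell sum without Cd79a differed more between the libraries than Lyz2 did. The part these cells have in the Lyz2 difference was not tested.

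Among monocyte genes with enough counts, 3 of 5 were at least 2-fold higher, against 3.16% of all genes, 2 of them kept only through AE-F2. Ccr2, the receptor that draws monocytes into tissue, had 21 and 38 counts, a log2 ratio of 0.46 (-0.33 to 1.32). Plac8 had 4 counts in control-F2 and 59 in AE-F2, a log2 ratio of 3.34, while Ace, which other cells also make, had 803 and 1247, a log2 ratio of 0.25. Of 16 neutrophil and granule genes 11 were at 0 in both libraries, among them S100a8, S100a9, Ly6g, Mpo and Elane, for which a floor of 3 counts is 0.184 CPM in control-F2 and 0.141 CPM in AE-F2. Only Ltf had enough counts, with 1 and 30, and was kept through AE-F2 alone, although its expression is not limited to neutrophils. All 10 mast cell, basophil and eosinophil genes had 3 or fewer counts.

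Of 7 dendritic cell genes with enough counts 2 were at least 2-fold higher, against 3.16% of all genes, both of them kept only through AE-F2, and Itgax, which encodes CD11c, had 46 and 83, a log2 ratio of 0.46 (-0.07 to 1.02). Of 12 inflammatory genes 7 had enough counts, and of these 4 were at least 2-fold higher and 1 lower, against 3.16% and 0.653% of all genes, each with fewer than 100 counts in either library, and 2 of those 4 were kept only through AE-F2. Il1b had 16 and 34, a log2 ratio of 0.68 (-0.19 to 1.66). Among alternative activation genes 0 of 4 were past 2-fold, against 3.16% higher and 0.653% lower over all genes. Tgfb1, which encodes a growth factor that restrains inflammation, had 145 and 242, a log2 ratio of 0.36 (0.05 to 0.66). These 4 activation genes lay nearer equality than Lyz2, but 0 of 4 past 2-fold is near the background.

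**Figure D4:**
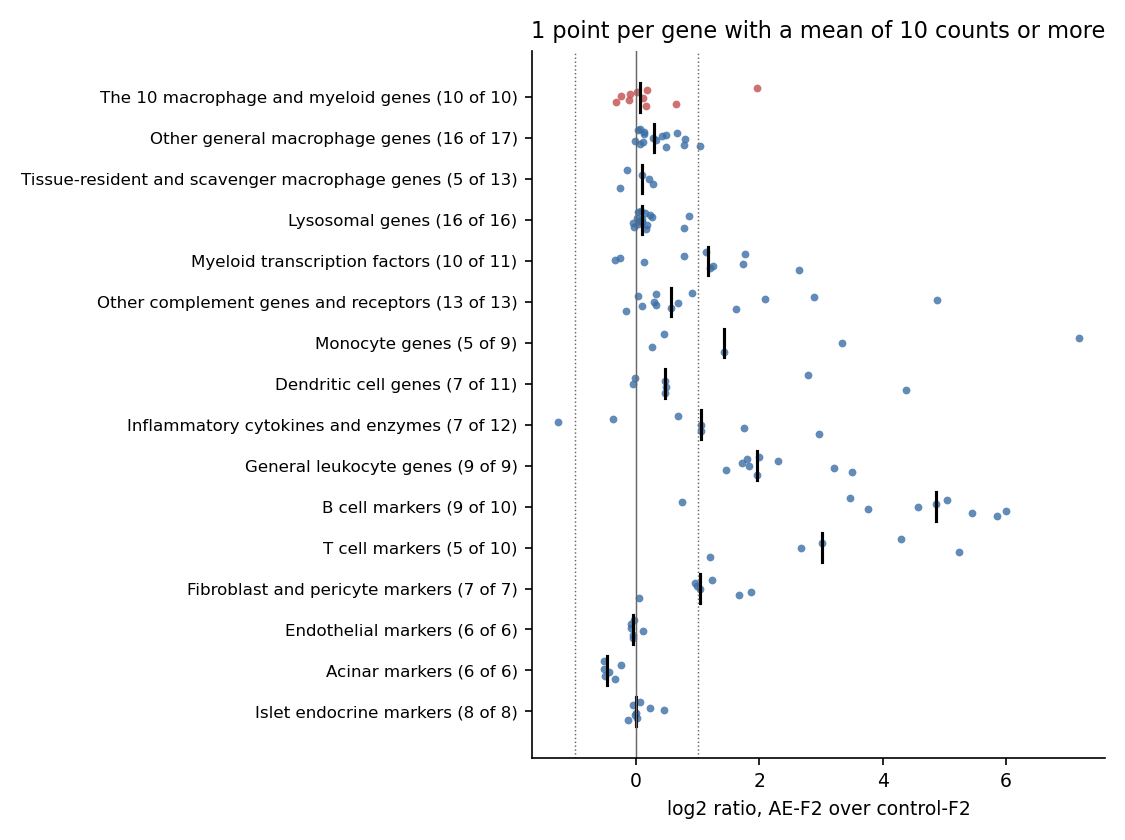
Ratio (log2) of the AE-F2 to the control-F2 level for each list gene that averages 10 counts or more, 1 point per gene and 1 row per list, with the median of each list marked and the genes kept in parentheses. Points of genes at 0 in control-F2, such as Cr2, Fcrla and Trbc2, depend on the pseudocount. General leukocyte genes have a median of 1.96 and general macrophage genes one of 0.29.

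Markers of other islet tissue were also read. Of 7 fibroblast markers 4 were at least 2-fold higher in AE-F2, against 3.16% of all genes, with a summed ratio of 1.70, and their log2 ratios ran from 0.05 to 1.87, with Col1a1 at 1.23. All 6 acinar markers were lower, with a summed ratio of 0.739, and endothelial markers had a summed ratio of 0.995. Their part in the values of the 10 genes was not tested.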

How the data were processed

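Islet RNA-seq of F2 males was read from 1 control-F2 and 1 AE-F2 library. The libraries were made from oligo(dT)-selected mRNA, and the authors deposited estimated counts per gene without scaling. The methods name HISAT2 for alignment and the submitters' processing notes name Bowtie2, RSEM and DESeq2, with no roles. The genome build and annotation are not given in the sources used here. Of 21899 identifiers, 21806 matched a symbol in GENCODE M21. Estimated counts were rounded (8.56% and 9.28% of values were not whole) and scaled with TMM factors in edgeR 4.0.16, computed on genes that average 10 counts or more. Log2 ratios used a pseudocount of 0.5 counts. Intervals at 95% were Clopper-Pearson for ratios, exact Poisson for CPM, Wilson for shares and exact conditional for ratios within a library (scipy 1.17.1). PCR copies are not independent, so intervals and floors cover counting error only. Levels per kilobase used the longest GENCODE transcript of a gene. No model was fitted.

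The members and lists were chosen with earlier results of these data known. Named from each list were at most the 4 genes with the highest mean CPM, any other with a mean of at least 100 counts and past 2-fold, and Lyz1. Other list genes named, which are those at or near 0 in a library, Il7r, Ccr2, Ikzf1 and Spi1, were chosen after their values were seen. Some genes of the lists are not reported here. Scaling, count minimum, pseudocount, fold threshold, thinning and summing of Lyz1 with Lyz2 were varied. The functions were tested on simulated data.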

Additional observations from a re-analysis of the deposited data

How the results depend on the processing

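With 1 library per group analysed, no library could be left out and the difference between the groups cannot be told apart from a difference between 2 single samples. No paired analysis was possible because 1 library of each group was analysed. The count of members at least 2-fold higher was 1 under each alternative to the scaling, count minimum, pseudocount and depth, and 2 at a fold threshold of 1.5, where Itgam joined Lyz2. The number of list genes at least 2-fold higher was 48, but 20 at a minimum mean count of 50. For all genes the counts of 430 higher and 89 lower became 1198 and 441 at a minimum mean count of 1, and 82 and 22 at 50. The log2 ratio of Lyz2 was 1.92 or more under each alternative and that of C1qa ran from -0.29 to -0.25. Adgre1 ran from -0.01 to 0.06, so it has no direction. Itgam ran from 0.47 to 0.66, Mrc1 from -0.33 to -0.12 and C1qc from -0.30 to -0.10, the last 2 reaching -0.12 and -0.30 when AE-F2 was thinned to the control-F2 total. The sum of the 9 members without Lyz2 ran from -0.10 to -0.06. Thinning was 1 seeded draw.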
